A study of Homo sapiens with 4 samples.

Results

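The BCL2 family decides whether a cell keeps its mitochondria intact or undergoes apoptosis. Here 10 of its genes were followed by RNA sequencing in SCC13 cells, a skin squamous cell carcinoma line, that carried either an shRNA against the RNA-binding protein CELF2 or a scrambled shRNA. The members were taken by gene name from the deposited count table, and each of BCL2L1, MCL1, BAX, BAK1, BID, BBC3, PMAIP1, BCL2L11, BMF and BIK matched 1 of its 60617 rows. All 10 passed the filter on low counts, which left 15170 genes for testing. The groups were CELF2 knockdown (lentivirus with a CELF2-targeting shRNA) and control shRNA (lentivirus with shScr, the scrambled shRNA), with 2 libraries each. Both used the same line, which the labels describe as genotype WT, grown in CnT-07 medium, so every library comes from 1 cell line. The sources used here give neither the shRNA sequences nor whether replicates were separate cultures. The p-values therefore measure the spread between these libraries, which may be technical.

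In this family the pro-survival proteins BCL2L1 (BCL-XL) and MCL1 hold back the effectors BAX and BAK1, which otherwise form pores in the outer mitochondrial membrane and let cytochrome c out. The BH3-only proteins sense damage or stress and bind to the pro-survival proteins, to the effectors, or to both. In keratinocytes, loss of contact with the matrix, ultraviolet damage and loss of growth factor signals are known triggers. Many members are also controlled at the protein level, by degradation, cleavage or phosphorylation, and BCL2L1, MCL1 and BCL2L11 are known for splice forms of different activity. Counts per gene show neither. MCL1 is also a known target of CELF2 (CUGBP2) in human colon cancer cells, where binding to its mRNA was reported to lower its translation.

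The libraries held 17649090 to 27898889 counts, and 3 counts corresponded to 0.107 to 0.178 CPM (counts per 1000000 of library size, scaled by TMM). CELF2 itself had 0 counts in each knockdown library and 1 and 0 counts in the control libraries, so its counts do not check the labels. The 12 keratinocyte markers summed to 27600 and 18940 CPM in the knockdown libraries and to 13410 and 19980 CPM in the control libraries. By edgeR 0 of the 12 were called, against 0.877% of all tested genes. At an unadjusted p below 0.05 there were 3, against 22.1%, and 10 lay above 0 on the log2 scale. The 7 immune markers summed to at most 0.168 CPM in a library, with 4 at 0 throughout, and the 6 melanocyte markers to at most 3.87 CPM, with MLANA, TYR, TYRP1 and SOX10 at 0. The 7 fibroblast markers summed to 38.1 and 21.1 CPM in the knockdown and to 13.3 and 16.3 CPM in the controls, nearly all of it COL1A1, with COL1A2, COL3A1, DCN and LUM at 0. The 5 endothelial markers summed to 1.83 and 2.23 CPM in the knockdown and to 0.679 and 0.357 CPM in the controls. Whether cells of these other types were present at all, or had a part in any result, was not tested. In RNA from whole cultures, a change in every cell and a change in the share of cells that express a gene cannot be told apart.

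None of the 10 members passed an adjusted p of 0.05. The differences that came closest were all in BH3-only genes, which make up 6 of the 10. BMF was 3.67-fold, BBC3 2.37-fold and BIK 1.85-fold as high in the knockdown as in the controls, while MCL1, BAX, BAK1, BID and BCL2L11 lay within 0.10 of 0 on the log2 scale. By edgeR's quasi-likelihood test with Benjamini-Hochberg adjustment over all tested genes, 0 of 10 members were called. Over all 15170 genes 133 were called (0.877%), with 0.606% higher and 0.27% lower in the knockdown. At an unadjusted p below 0.05 there were 3 members, BMF, BBC3 and BIK, against 22.1% of all tested genes. With the GC correction the unadjusted edgeR p was 0.105 for BBC3 and 0.0917 for BIK, while BMF stayed below 0.05. DESeq2 called 1 member (BMF) and limma-voom 0. The knockdown libraries lay above both controls in 4 members (BMF, BBC3, BIK and BID), against 27.1% of tested genes. They lay below both in 1 member (BAX, by 0.00253 CPM), against 27.8%. The median log2 fold change was 0.25 over the members and -0.0036 over all tested genes, with 8 of the 10 members above 0.

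**Figure D1:**
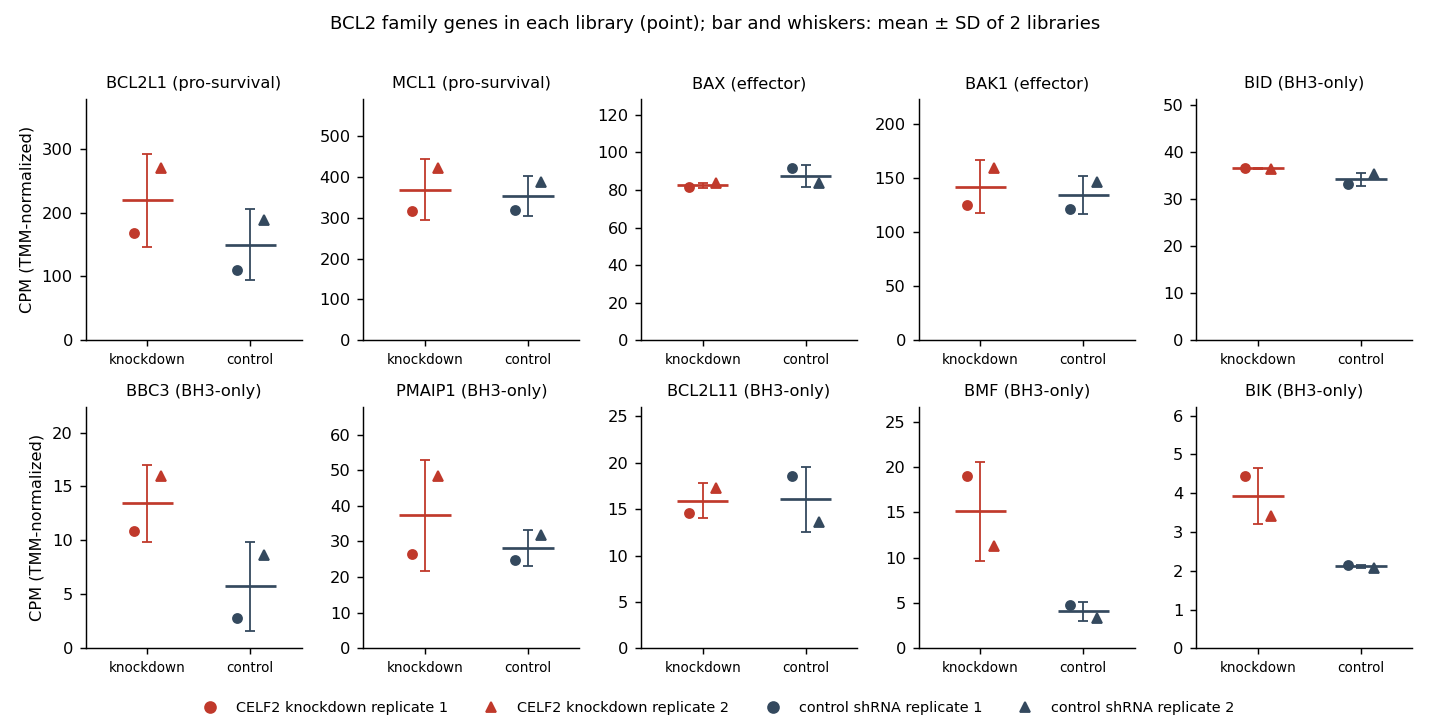
TMM-normalized CPM of the 10 BCL2 family genes in each of the 2 CELF2 knockdown and 2 control shRNA libraries, with the mean and SD of each group; each panel has its own axis from 0. BMF, BBC3 and BIK show no overlap between the groups, while MCL1, BAK1, PMAIP1, BCL2L1 and BCL2L11 overlap.

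BMF showed the largest difference of the family with all 4 libraries, although BBC3 exceeded it without control replicate 2 (2.25 for BBC3 and 1.66 for BMF, log2) and, by less, without knockdown replicate 1. It encodes a BH3-only protein that is held on the actin-myosin motor through the dynein light chain DYNLL2 and is released when cells lose their attachment. BMF (ENSG00000104081, GRCh38 chr15:40087890-40108892, minus strand, protein coding) had 19.0 and 11.2 CPM in the knockdown libraries, against 4.83 and 3.33 CPM in the control libraries, from 385 and 267 counts and from 135 and 56 counts. Both knockdown libraries were at least 6.42 CPM above the higher control. The log2 fold change was 1.88 ± 0.36 (SE), with a 95% interval of 1.03 to 2.72 and the adjusted p by the edgeR quasi-likelihood test was 0.0576. The call depended on the processing. BMF passed with total counts in place of TMM (0.0439), with a correction for GC content (0.0455), with DESeq2 (5.71e-05) and without a filter on low counts (8.09e-07). It did not pass with the other scaling tried, with limma-voom or with any 1 library left out (adjusted p 0.0518 to 0.153 by these tools), and its log2 fold change stayed between 1.46 and 2.20 over all of these. The opposite-strand gene BMF-AS1, whose exons overlap it, had 0 counts in each library.

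BBC3 (PUMA), a BH3-only protein that binds all the pro-survival members, had the second largest difference. BBC3 (ENSG00000105327, chr19:47220822-47232766, minus strand) had 10.9 and 16.0 CPM in the knockdown libraries and 2.86 and 8.67 CPM in the control libraries. The groups did not overlap, but the 2 controls differed 3.03-fold from each other. The log2 fold change was 1.24 ± 0.50 (SE; 95% interval 0.07 to 2.41; adjusted p = 0.204, edgeR quasi-likelihood test). With the GC correction it was 0.91. Without control replicate 1 it was 0.62 (adjusted p = 0.606 by edgeR), and without control replicate 2 it was 2.25, where BBC3 passed (adjusted p = 0.0263 by edgeR). Without the filter on low counts it passed as well (0.00256, at a log2 fold change of 1.26), and over its alternatives the adjusted p ran from 0.00256 to 0.606. The microRNA genes MIR3191 and MIR3190 overlap its exons and had 0 counts in each library.

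The lowest library of BBC3 was also the lowest for several stress genes, chosen here after their values were seen. DDIT3 (CHOP), a transcription factor of the unfolded protein response that can induce BBC3, had 32.6 and 46.5 CPM in the knockdown and 13.8 and 55.7 CPM in the controls, with exons that overlap MARS and MBD6. TRIB3, a target of DDIT3 and ATF4, had 273 and 441 CPM in the knockdown and 92.0 and 486 CPM in the controls. ATF4, the central factor of the integrated stress response, had 461 and 550.2 CPM in the knockdown and 325 and 684 CPM in the controls. In all of these control replicate 1 was the lowest of the 4 libraries, as it was for BBC3. Since they were chosen with these values known, this likeness is no result. Control replicate 1 was also the lowest for BCL2L1, BAK1, BID and PMAIP1, but not for MCL1, BAX, BCL2L11, BMF or BIK. The share of all tested genes with this lowest library was not computed. For DDIT3, TRIB3 and ATF4 control replicate 2 was the highest, whereas for BBC3 it lay below both knockdown libraries. Their part in the BBC3 difference was not tested.

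**Figure D2:**
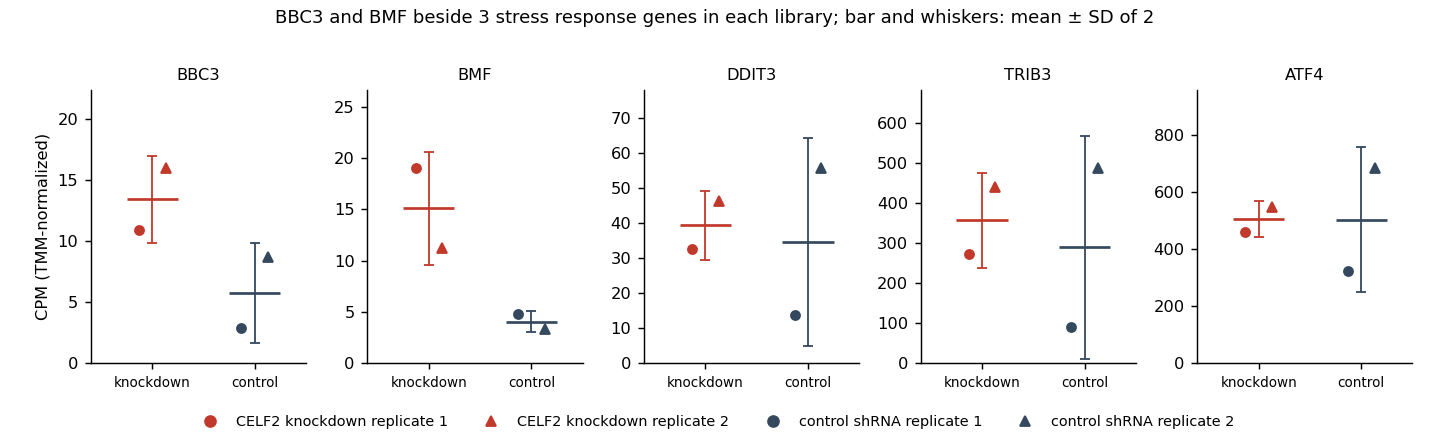
TMM-normalized CPM of BBC3, BMF, DDIT3, TRIB3 and ATF4 in each library, with the mean and SD of each group and axes from 0. Control shRNA replicate 1 is the lowest library for BBC3, DDIT3, TRIB3 and ATF4, while for BMF control replicate 2 is the lowest.

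BIK, a BH3-only protein of the endoplasmic reticulum, was the least counted member. BIK (ENSG00000100290, chr22:43110748-43129712, plus strand) had 4.44 and 3.41 CPM in the knockdown libraries and 2.15 and 2.08 CPM in the control libraries, from 90 and 81 counts against 60 and 35 counts. The groups did not overlap. The log2 fold change was 0.89 ± 0.37 (SE; 95% interval 0.02 to 1.76) and did not pass (adjusted p = 0.219, edgeR quasi-likelihood test). It was 0.69 with the GC correction and ran from 0.70 to 1.06 with a library left out.

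The other 3 BH3-only genes were closer to the controls. PMAIP1 (NOXA; ENSG00000141682, chr18:59899948-59904306, plus strand) binds MCL1 and promotes its degradation. It had 26.4 and 48.3 CPM in the knockdown and 24.7 and 31.8 CPM in the controls, where knockdown replicate 2 stood above the other libraries. Its log2 fold change of 0.41 ± 0.30 (SE; 95% interval -0.30 to 1.11) turned to -0.10 without knockdown replicate 2. BCL2L11 (BIM; ENSG00000153094, chr2:111119378-111168447, plus strand) binds all pro-survival members and can activate BAX and BAK1. It had 14.6 and 17.2 CPM in the knockdown and 18.6 and 13.6 CPM in the controls, so that the controls enclosed the knockdown libraries. Its log2 fold change was -0.02 ± 0.25 (95% interval -0.60 to 0.57). Its exons overlap those of MIR4435-2HG on the other strand, which had 193 and 243 counts in the knockdown and 398 and 271 counts in the controls, so its counts are uncertain. BID (ENSG00000015475, chr22:17734138-17774770, minus strand), which caspase-8 cleaves into an active form, had 36.6 and 36.4 CPM in the knockdown and 33.2 and 35.2 CPM in the controls. The knockdown libraries of BID lay above both controls by 1.22 CPM, at a log2 fold change of 0.09 ± 0.17 (95% interval -0.31 to 0.50).

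Of the pro-survival genes, BCL2L1 was 1.46-fold as high in the knockdown, without passing. BCL2L1 (ENSG00000171552, chr20:31664452-31723989, minus strand) had 168 and 270.5 CPM in the knockdown libraries and 111 and 189 CPM in the control libraries. Control replicate 2 lay above knockdown replicate 1, and replicate 2 was the higher in both groups, by 1.61-fold in the knockdown and 1.71-fold in the controls. The log2 fold change was 0.55 ± 0.31 (SE; 95% interval -0.17 to 1.27; adjusted p = 0.342, edgeR quasi-likelihood test). It was 0.16 without knockdown replicate 2, 0.21 without control replicate 1, 0.86 without knockdown replicate 1, 1.00 without control replicate 2 and 0.36 with the GC correction. MCL1 (ENSG00000143384, chr1:150574551-150579738, minus strand) had 316 and 422 CPM in the knockdown and 318 and 387 CPM in the controls, at a log2 fold change of 0.07 ± 0.21 (95% interval -0.41 to 0.54). Without knockdown replicate 2 it turned to -0.16. The interval leaves room for a change of 0.751-fold to 1.46-fold in MCL1 mRNA. ABALON, which overlaps BCL2L1 on the other strand, had 1 and 0 counts in the knockdown and 0 in both controls, and ADAMTSL4-AS1, which overlaps MCL1 on the same strand, had 1 and 2 counts in the knockdown and 2 and 6 in the controls.

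The effectors lay close to the controls in the main fit. With the GC correction BAX moved to -0.36 and BAK1 to -0.17 on the log2 scale. BAX (ENSG00000087088, chr19:48954815-48961798, plus strand) had 81.5 and 83.5 CPM in the knockdown libraries and 91.8 and 83.5 CPM in the control libraries, at a log2 fold change of -0.09 ± 0.16 (SE; 95% interval -0.46 to 0.29). Knockdown replicate 2 and control replicate 2 stood at the same level. BAK1 (ENSG00000030110, chr6:33572547-33580293, minus strand) had 125 and 159 CPM in the knockdown and 122 and 146 CPM in the controls, at 0.08 ± 0.19 (95% interval -0.36 to 0.53). Neither passed (adjusted p = 0.790 for BAX and 0.837 for BAK1, edgeR quasi-likelihood test), and the interval of BAK1 still allows a fold change of 0.777 to 1.45. The overlapping gene GGNBP1 had 0 counts in each library.

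**Figure D3:**
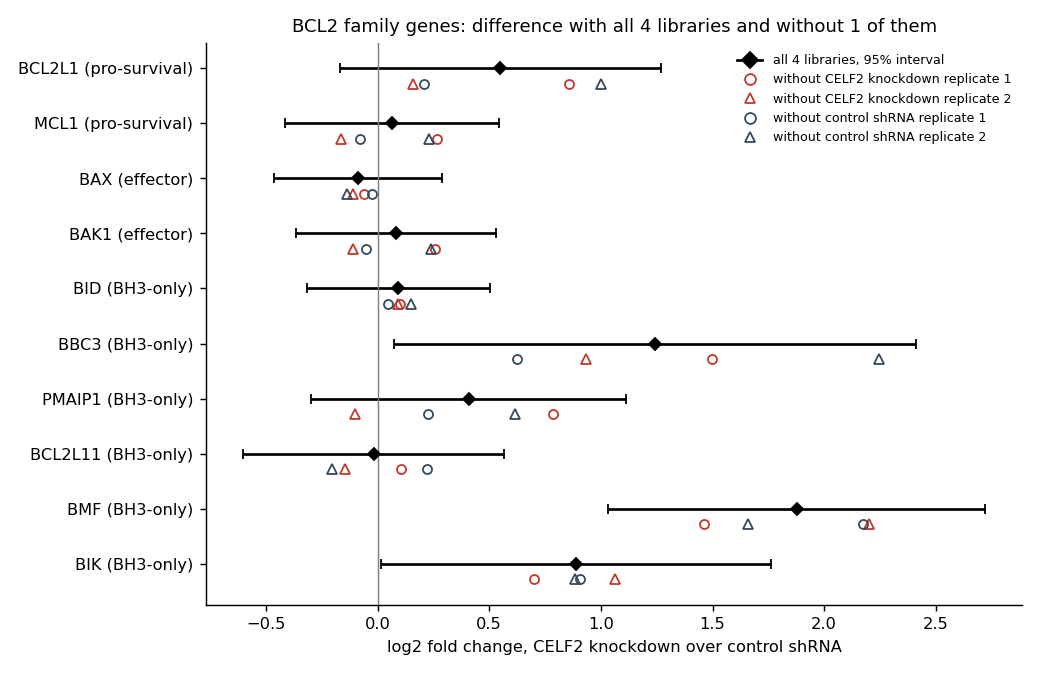
Log2 fold change of each BCL2 family gene, CELF2 knockdown over control shRNA, with its 95% interval (diamond and bar) and the value without each library in turn (open symbols). BMF stays between 1.46 and 2.20, BBC3 spreads from 0.62 to 2.25, and MCL1, BAK1, PMAIP1 and BCL2L11 have values on both sides of 0.

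The replicate number moved with several members. Of the 10 members, 5 (BCL2L1, MCL1, BAK1, BBC3 and PMAIP1) were higher in replicate 2 than in replicate 1 of both groups, and 2 (BMF and BIK) were lower in replicate 2 of both groups. These shares were not computed over all tested genes, so they may be ordinary. For PMAIP1 replicate 2 was 1.83-fold as high in the knockdown and 1.29-fold in the controls, and for BMF it was 0.592-fold and 0.689-fold. The part of this in the group differences was not tested.

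Levels of different members were compared per length, as CPM per kb of all exons of the gene. MCL1 had the highest mean level, with 72.2 and 96.5 CPM per kb in the knockdown and 72.8 and 88.5 in the controls. BCL2L1 overlapped it, since its knockdown replicate 2 lay above MCL1 in replicate 1 of both groups. BAK1 (56.3 and 72.0 in the knockdown, 55.0 and 66.2 in the controls) and BCL2L1 (50.7 and 81.6 in the knockdown, 33.4 and 57.1 in the controls) followed and overlapped each other. BAX came next at 31.5 to 35.5 CPM per kb over the 4 libraries and overlapped BCL2L1. PMAIP1 followed at 11.0 to 21.6 and BID at 7.47 to 8.22 CPM per kb, each apart from its neighbours. At the low end BIK, BBC3, BCL2L11 and BMF, with means of 3.17, 3.02, 2.40 and 1.76 CPM per kb over the 4 libraries, overlapped their neighbours in the order. With the length of the longest protein-coding transcript, MCL1 stayed first by its mean, again overlapped by BCL2L1. BCL2L1 (mean 70.7 over the 4 libraries) and BAX (62.6) moved above BAK1 (62.4), and BBC3 (5.22) moved above BIK (3.17).

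**Figure D4:**
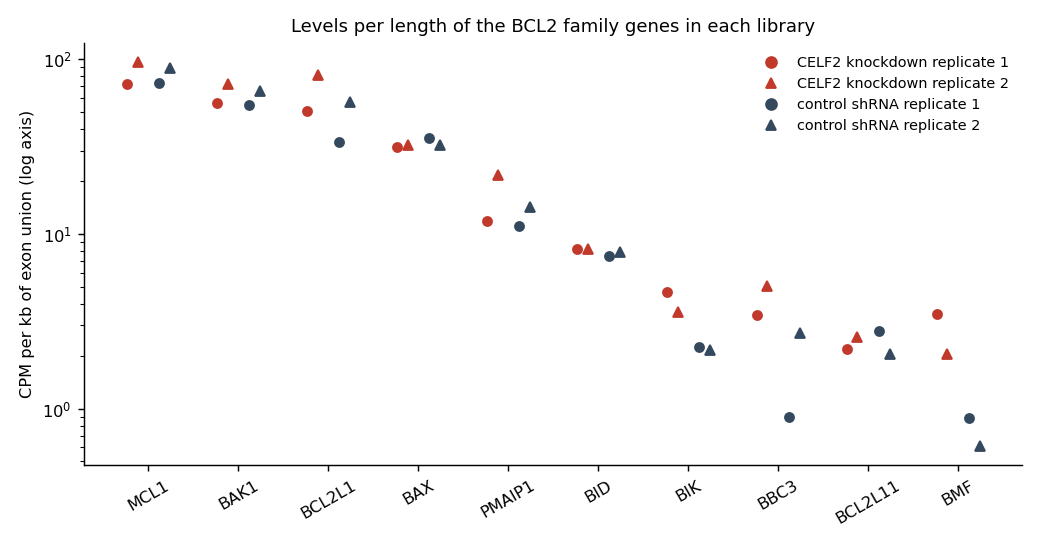
CPM per kb of exon union (log axis) of the 10 BCL2 family genes in each library, in falling order of their mean. The pro-survival and effector genes lie between 31.5 and 96.5 CPM per kb, and the BH3-only genes lie below them, down to 0.611 CPM per kb for BMF in control replicate 2.

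Ratios within a library do not depend on how libraries are scaled. BCL2L1 over MCL1, per length, was 0.702 and 0.846 in the knockdown libraries and 0.459 and 0.645 in the control libraries, so that the groups did not overlap. PMAIP1 over MCL1 was 0.163 and 0.224 in the knockdown and 0.152 and 0.161 in the controls. Its groups did not overlap either, but knockdown replicate 1 (0.163) lay barely above control replicate 2 (0.161). Among single tested genes, 27.1% lay higher in both knockdown libraries than in both controls. That share was not computed for ratios. BAX over BAK1 was 0.560 and 0.448 in the knockdown and 0.645 and 0.488 in the controls, and the groups overlapped. With the length of the longest protein-coding transcript BAX over BAK1 was 1.07 and 0.854 in the knockdown and 1.23 and 0.929 in the controls, on both sides of 1 and again overlapping. With 2 libraries a group an exact permutation test cannot give a two-sided p below 0.333, so these ratios were not tested.

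CELF proteins bind GU-rich stretches in the 3' untranslated regions of mRNAs. Sites are shown for each member that holds a match. In the longest protein-coding transcript of each member (GENCODE v29), TGTTTGT and TGTGTGT were counted on the transcript strand, and each is in capitals with 7 bases on either side. TGTTTGT occurred in 4 of 10 members (MCL1, BCL2L1, BID and BCL2L11), against 28.5% of the 12734 tested genes with such a region. TGTGTGT occurred in 2 of 10 (BMF and BCL2L11), against 28.6%. BCL2L11 held 1 match of TGTTTGT and 4 of TGTGTGT. The lines give BMF at chr15:40088389-40088409 and chr15:40087937-40087965, MCL1 at chr1:150575887-150575907 and chr1:150574767-150574787, BCL2L1 at chr20:31665524-31665544 and BID at chr22:17734847-17734867, all on the minus strand of GRCh38, and 1 of the BCL2L11 sites at chr2:111167389-111167409 on the plus strand.
BMF, first site: acagctcTGTGTGTgaaggtg
BMF, next site: atgcataTGTGTGTaTGTGTGTatatctt
MCL1, first site: gtcttgaTGTTTGTtctatca
MCL1, next site: tgacttcTGTTTGTcttacgc
BCL2L1: gttttgaTGTTTGTggcctca
BID: cagccacTGTTTGTttacaaa
BCL2L11: aaccttcTGTTTGTtccaaag

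Long regions hold such short motifs more often. Among tested genes whose region was within 1.25-fold of the length of BMF's 3897 bases, 55.6% held TGTGTGT, and around MCL1's 2819 bases 45.4% held TGTTTGT. BBC3 and BIK, with 975 and 407 bases, held neither. The matches describe the reference sequence only and show no binding.

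The start sites of the members differed in the motifs they hold. Of the 10 members, 8 had a promoter window in the RefSeq table (GRCh38.p14), which runs from 250 bases before to 50 after the start. MCL1 and BIK had none. The motifs searched on both strands, chosen after the values were seen, were the E-box CACGTG bound by MYC and USF, the GC box GGGCGG bound by SP1, CCAAT bound by NF-Y, the FOXO motif GTAAACA and the CRE core TGACGT bound by ATF and CREB factors. They occurred in 7.26%, 45.0%, 34.6%, 3.42% and 7.98% of 35116 windows of this length. For BMF, BBC3, BAX and BCL2L11 1 window each is printed, to set the members with the largest differences beside an effector and a BH3-only gene near 0. Motifs are in capitals, and the places are chr15:40108830-40109129 (minus strand) for BMF, chr19:47232618-47232917 (minus) for BBC3, chr19:48954625-48954924 (plus) for BAX and chr2:111120664-111120963 (plus) for BCL2L11.
BMF: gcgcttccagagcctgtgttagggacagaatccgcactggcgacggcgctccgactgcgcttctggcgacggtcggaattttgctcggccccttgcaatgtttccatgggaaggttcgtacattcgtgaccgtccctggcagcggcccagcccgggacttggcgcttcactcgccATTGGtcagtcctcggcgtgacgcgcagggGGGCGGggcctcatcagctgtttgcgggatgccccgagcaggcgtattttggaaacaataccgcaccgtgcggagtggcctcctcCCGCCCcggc
BBC3: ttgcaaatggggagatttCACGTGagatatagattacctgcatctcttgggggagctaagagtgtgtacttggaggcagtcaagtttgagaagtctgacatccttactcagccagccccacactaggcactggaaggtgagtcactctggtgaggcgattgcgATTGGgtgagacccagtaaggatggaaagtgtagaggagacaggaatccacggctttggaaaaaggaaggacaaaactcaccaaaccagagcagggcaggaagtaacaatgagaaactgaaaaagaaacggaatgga
BAX: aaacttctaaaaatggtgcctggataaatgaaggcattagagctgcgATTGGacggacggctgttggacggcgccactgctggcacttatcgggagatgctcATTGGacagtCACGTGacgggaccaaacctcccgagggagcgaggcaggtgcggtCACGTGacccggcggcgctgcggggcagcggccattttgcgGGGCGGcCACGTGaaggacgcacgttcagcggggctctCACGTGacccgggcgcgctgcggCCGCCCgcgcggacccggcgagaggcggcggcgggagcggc
BCL2L11: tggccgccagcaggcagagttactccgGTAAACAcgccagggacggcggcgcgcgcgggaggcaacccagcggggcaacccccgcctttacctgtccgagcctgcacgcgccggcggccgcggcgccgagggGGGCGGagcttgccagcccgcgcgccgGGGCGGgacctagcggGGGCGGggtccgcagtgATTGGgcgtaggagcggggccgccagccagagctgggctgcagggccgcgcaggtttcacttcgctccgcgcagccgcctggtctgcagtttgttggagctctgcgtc

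BAX held 4 E-boxes, 2 GC boxes and 2 CCAAT boxes, and BCL2L11 held 1 FOXO motif, 3 GC boxes and 1 CCAAT box. BMF held 2 GC boxes and 1 CCAAT box in this window, and BBC3 1 E-box and 1 CCAAT box. A further BMF window, chr15:40106917-40107216 on the minus strand and not printed, held 0 of each motif. PMAIP1, not printed, held 1 CRE core and 4 GC boxes. BAK1, not printed, held 2 GC boxes and 2 CCAAT boxes. BCL2L1 and BID had several windows, not printed. Those of BCL2L1 held 0 or 1 GC box, and those of BID 0 to 4 GC boxes and 0 or 1 E-box. Windows of the same gene thus differed as well. Over the 4 printed windows the base composition ran from 48.0% G and C in the BBC3 window to 74.7% in that of BCL2L11. A match is not a bound site, and its absence says only that these letters are not in this window.

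Around the members, the inputs and outputs of the pathway were read from lists chosen with earlier results of these data known. Only 1 gene of these 7 lists passed the test over all genes, where 0.877% of all tested genes passed. TNFSF10 (TRAIL), a death ligand that is also induced by interferon, rose to 53.1 and 31.0 CPM in the knockdown libraries, against 13.1 and 11.3 CPM in the control libraries. Both knockdown libraries lay above both controls, at a log2 fold change of 1.78 ± 0.29 (SE; adjusted p = 0.0483, edgeR quasi-likelihood test). The call was lost with limma-voom (adjusted p = 0.0588), without knockdown replicate 2 (0.0645 by edgeR) and without control replicate 1 (0.143 by edgeR). Its log2 fold change ran from 1.35 to 2.11 over the libraries left out. The 8 tested genes of the death receptor list, through which BID is cleaved, held 1 call higher and 0 lower in the knockdown. Over all tested genes the shares were 0.606% and 0.27%. At an unadjusted p below 0.05 by edgeR there were 2, against 22.1%, and 6 lay above 0 and 2 below. FAS, named after its values were seen, had 13.2 and 14.2 CPM in the knockdown and 20.1 and 19.1 CPM in the controls. The median of the list was 0.22 on the log2 scale. It turned to -0.05 with the GC correction and was 0.09 without control replicate 1. The TRAIL receptors TNFRSF10A and TNFRSF10B, named after their values were seen, had -0.27 and 0.21.

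The 16 other BCL2 family genes included 11 that could be tested, of which 0 passed (edgeR quasi-likelihood test). At an unadjusted p below 0.05 there were 3, against 22.1% of all tested genes, and the median was -0.08. BCL2, the founding pro-survival gene and named after its values were seen, had only 1.83 and 3.79 CPM in the knockdown and 5.94 and 3.03 CPM in the controls. BAD, a BH3-only gene also named after its values were seen, had a log2 fold change of 0.18, and its groups overlapped. The smallest p-values of the list were those of BCL2L12, at 35.5 and 39.8 CPM in the knockdown and 55.7 and 53.2 CPM in the controls, and of BNIP3L, a mitophagy receptor, at 65.4 and 56.1 CPM in the knockdown and 36.8 and 44.7 CPM in the controls. The groups did not overlap in either gene. Exons of BCL2L12 overlap IRF3, and exons of BNIP3L overlap PNMA2, so both are uncertain.

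The mitochondrial pore, release and apoptosome list held 11 tested genes. Of these, 7 lay lower in both knockdown libraries than in both controls and 2 lay higher, against 27.8% and 27.1% of all tested genes. The median of the list was -0.31. Of the 11, 0 passed over all genes (edgeR quasi-likelihood test), with 7 at an unadjusted p below 0.05, against 22.1% of all tested genes. These are not the same 7 genes as those that lay lower. They leave out VDAC1 and AIFM1, which lay lower. They include ENDOG (1.53-fold) and CASP9 (1.6-fold), which lay higher in the knockdown. These 4 genes are named after their values were seen. CYCS, which encodes cytochrome c, had 169.7 and 201 CPM in the knockdown and 322 and 255 CPM in the controls (log2 fold change -0.64 ± 0.19, SE). HTRA2, a mitochondrial protease, had 30.1 and 23.8 CPM in the knockdown and 44.9 and 38.6 CPM in the controls, with exons that overlap AUP1 and LOXL3. Of 9 tested caspases 0 passed and 0 had an unadjusted p below 0.05, with a median of 0.12 that turned to -0.11 without knockdown replicate 2, -0.02 without control replicate 1 and -0.10 without control replicate 2. CASP14, the caspase of keratinocyte differentiation, had 177 and 37.9 CPM in the knockdown and 55.1 and 13.1 CPM in the controls, and CASP8, which cleaves BID, had 23.1 and 22.2 CPM in the knockdown and 32.7 and 26.1 CPM in the controls.

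Of 6 tested inhibitors of apoptosis 0 passed (2 at an unadjusted p below 0.05, against 22.1% of all tested genes, median 0.13). BIRC5 (survivin), which also serves in mitosis, had 56.3 and 93.5 CPM in the knockdown and 199.7 and 120.4 CPM in the controls (log2 fold change -1.10 ± 0.31, SE). BIRC3, a target of NF-kB, had 2.17 and 7.71 CPM in the knockdown and 0.715 and 1.60 CPM in the controls (2.13 ± 0.69). Neither overlapped between the groups. Of 15 tested regulators of MCL1, BCL2L11 and BAD proteins 0 passed (1 at an unadjusted p below 0.05, again against 22.1%, median -0.02). DYNLL2, the dynein light chain that holds BMF, had 147 and 179 CPM in the knockdown and 122 and 95.1 CPM in the controls (0.59 ± 0.19). BTRC, a ubiquitin ligase subunit, had 61.4 and 62.5 CPM in the knockdown and 46.6 and 48.8 CPM in the controls.

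Of 14 transcription factors and partners that act on the family 0 passed (edgeR quasi-likelihood test). At an unadjusted p below 0.05 there were 2, against 22.1% of all tested genes. Above 0 lay 13, against 7532 of all 15170 tested genes. The median was 0.30, with 0.12 without knockdown replicate 2 and 0.17 with the GC correction. TP73, a transcription factor that can induce BBC3, had 14.8 and 6.27 CPM in the knockdown and 3.07 and 5.53 CPM in the controls (log2 fold change 1.30 ± 0.48, SE), and its exons overlap TP73-AS1. STAT3, an activator of MCL1 and BCL2L1, had 139.5 and 161 CPM in the knockdown and 103 and 122 CPM in the controls (0.42 ± 0.17).

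**Figure D5:**
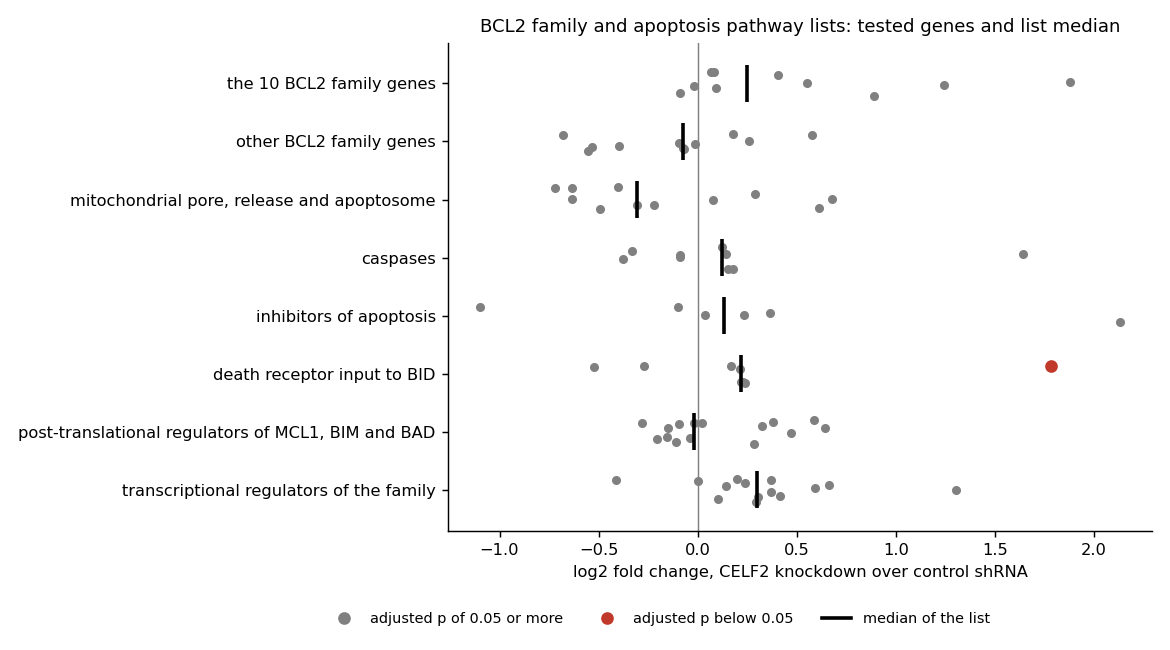
Log2 fold change, CELF2 knockdown over control shRNA, of each tested gene (point) in the BCL2 family and 7 pathway lists, with the list median (black line). The 1 gene past an adjusted p of 0.05 is TNFSF10, at 1.78, and the medians run from -0.31 for the mitochondrial pore and apoptosome list to 0.30 for the transcriptional regulators.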

How the data were processed

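PolyA RNA was sequenced from 4 TruSeq libraries of SCC13 cells, 2 per group, grouped by sample title. The authors deposited raw read counts per Ensembl gene; HISAT2, edgeR and GRCh38 are named in the submitters' processing notes, and the counting program, annotation and strand setting are not stated in the labels or notes, so reads of overlapping genes could be shared or dropped. The 4 libraries are distinct (chi-square per degree of freedom 48.1 within the knockdown and 54.3 within the controls).

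The counts were tested with edgeR 4.0.16 (R 4.3.3): quasi-likelihood test, TMM, filterByExpr at a minimum count of 10, Benjamini-Hochberg adjustment at 0.05. The common biological coefficient of variation was 21.6%. The fit was checked on simulated counts with known changes. It called 48 of 100 changes of 2-fold and 100 of 100 of 4-fold with the right sign, and 4 unchanged genes. A 2-fold change can therefore go uncalled. The changed genes were drawn from better counted genes, so genes as low as BIK were not covered. Their spread was taken from the trend over all genes, not from each gene. A 4-fold change can thus go uncalled as well, and BIRC3 was not called at 4.38-fold. Intervals are 95% intervals of the fit. CPM are TMM-normalized; lengths, positions and overlaps came from GENCODE v29. Alternatives were size factors by relative log expression (RLE), total counts, no filter, DESeq2 1.42.0, limma-voom (limma 3.58.1), a replicate block, a GC correction and leaving out each library. Members and lists were chosen with earlier results of these data known. All 10 members are named; from the other lists, genes past the threshold or else the 2 with the smallest p, beside genes said to be named after their values were seen. One gene of the transcription factor list is not reported here by name.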

Additional observations from a re-analysis of the deposited data

How the results depend on the processing

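The number of genes called over the whole table depended on the processing: 133 became 207 with RLE factors, 416 with total counts, 2139 without a filter, 1341 with DESeq2, 0 with limma-voom (3402 at an unadjusted p below 0.05), 559 with the GC correction and 0 to 616 with 1 library left out (0 without control replicate 1, 7 without knockdown replicate 2, 365 without knockdown replicate 1, 616 without control replicate 2). Of the calls 69.2% were higher in the knockdown with TMM, 56.5% with DESeq2 and 34.9% after the GC correction. The 0 members called became 1 with total counts, DESeq2 and the GC correction (BMF), 2 without a filter (BMF and BBC3), and 0 to 1 with a library left out (BBC3, without control replicate 2). The log2 fold change of BMF where it passed was 1.93 with total counts, 1.89 without a filter, 1.88 with DESeq2 and 1.70 with the GC correction, and that of BBC3 was 1.26 without a filter and 0.62 to 2.25 with a library left out. Members near 0 changed sign: BAK1 to -0.17 with the GC correction and BCL2L11 to 0.0389 with total counts, and with a library left out MCL1 ran from -0.16 to 0.27, BAK1 from -0.11 to 0.26, PMAIP1 from -0.10 to 0.79 and BCL2L11 from -0.21 to 0.22; the cause was not tested. Of 110 alternative values of the members, 93 kept their direction and side of the threshold. Of 77 alternative medians of the 7 pathway lists, 19 moved by more than the spread between replicates.

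Deviations from the group means correlated at 0.203 between libraries of the same replicate number, over only 2 such pairs and with no label that ties them, so the numbers were not taken as pairs. With a replicate block 1579 genes and 2 members passed, BMF at 1.87 and BBC3 at 1.39. BIK, at 35 to 90 counts a library, is the member that depth limits most.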

Other observations

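Several pathway genes, named after their values were seen, had few counts, and HRK, BIRC7, BCL2A1 and BCL2L10 were not tested. HRK, a BH3-only gene known from neurons, had 2 and 10 counts in the knockdown libraries and 1 and 0 in the control libraries. BIRC7, an inhibitor of apoptosis known from melanoma, had 7 and 2 counts in the knockdown and 0 in both controls. The pro-survival gene BCL2A1, an NF-kB target of blood cells, had 0 and 1 counts in the knockdown and 0 in both controls, and BCL2L10 had 0 in each library. DIABLO, which releases caspases from inhibitors of apoptosis, passed the filter but stood at only 0.888 and 0.590 CPM in the knockdown and 0.608 and 0.594 CPM in the controls under 1 of its 2 gene IDs and at 0 under the other, whose exons overlap the first.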
